A study of Homo sapiens with 12 samples.

Results

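The SLC25 mitochondrial carriers were followed as 48 protein-coding genes, taken as every gene of the count table whose symbol is SLC25A followed by digits, out of 58735 genes in all. Membership rested on the symbol alone and used no measured value, although the carriers were chosen for study with earlier results of these data known. The cells were C4.2B, a line derived from LNCaP that models castration-resistant prostate cancer, and their RNA was sequenced in 4 arms of 3 libraries (A, B and C), 12 in all. The control arm received DMSO, the AKTi arm the AKT inhibitor ipatasertib at 0.25 µM, the EZH2i arm the EZH2 inhibitor tazemetostat at 1 µM, and the combination arm both agents at these doses. Tazemetostat was given for 6 days before the other agent was added, while DMSO and AKTi cells were kept without it, so the arms differ in length of exposure as well as in agent. All cells were moved to medium with 10% charcoal-stripped FBS and collected 24 hours later. C4.2B is 1 cell line, and the labels do not say whether libraries A to C came from separate cultures. The paper describes seeding in triplicate on the day before dosing, after the pretreatment. The 6 days of pretreatment may thus not have been repeated for each library, and p-values measure the spread between these libraries only.

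Most SLC25 proteins sit in the inner mitochondrial membrane and move metabolites, nucleotides, cofactors or ions between the matrix and the cytosol, usually by exchanging 1 substrate for another. They connect the TCA cycle, the respiratory chain and ATP synthesis in the matrix with glycolysis, lipid synthesis and amino acid metabolism in the cytosol. Several carriers share a substrate, and those that do are compared here as pairs. In prostate epithelium, citrate metabolism is a known specialty, and citrate leaves mitochondria through the carrier encoded by SLC25A1.

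Total counts ranged from 14133755 to 22276417 per library, and libraries of 1 arm differed by more than sampling noise. The level of each gene is given in CPM after TMM scaling of the libraries. Unless stated otherwise, levels of different genes are compared after division by the gene length deposited with the counts (length-scaled level, CPM per kilobase). Ranks, shares and ratios between genes depend on this length, which may differ from that of the transcripts expressed. All 10 prostate luminal markers checked had at least 10 counts in every library. Their summed level was 3988 to 4122 CPM in DMSO, 6097 to 6287 with AKTi, 6783 to 7015 with EZH2i and 8766 to 8955 in the combination. The summed level stayed at or below 0.368 CPM for 3 basal markers and 1.29 CPM for 3 leukocyte markers, with KRT5 and CD3E at 0 in every library. The 4 fibroblast markers summed to 5.71 to 8.82 CPM in DMSO, 7.23 to 8.69 with AKTi, 16.7 to 18.5 with EZH2i and 10.8 to 15.5 in the combination, mostly from COL1A1. The 2 endothelial markers, mostly VWF, summed to 2.11 to 2.95 CPM under DMSO, 3.48 to 4.34 under AKTi, 5.70 to 6.50 under EZH2i and 5.07 to 7.38 with both agents, so every treated library lay above DMSO. PECAM1 was close to 0 throughout. The 3 neuroendocrine markers summed to 1.39 to 2.75 CPM. The part of these shifts in the carrier values was not tested.

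Of the 48 carriers, 42 passed the filter on low counts and were tested. The other 6 were SLC25A2, SLC25A31, SLC25A32, SLC25A41, SLC25A47 and SLC25A52, with 1, 0, 76, 50, 10 and 18 counts in all 12 libraries together. SLC25A31, the germ line ADP/ATP carrier, had no count in any library, which allows at most 0.138 to 0.221 CPM (3 counts per library, counting error only). For SLC25A32, 69.7% of the exon bases are also exon of another gene on the same strand that is listed at 0 throughout (GENCODE v44, hg38), so its reads may have been left uncounted as ambiguous and its level is uncertain.

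Carriers were lowered more often than raised in every treated arm, and most often in the combination. By edgeR's quasi-likelihood test with Benjamini-Hochberg adjustment over 16646 genes, at a threshold of 0.05, 26 of the 42 carriers (61.9%) fell and 6 (14.3%) rose in the combination against DMSO. Among all genes tested, 35.2% fell and 38.0% rose in this comparison. AKTi alone lowered 17 carriers (40.5%) and raised 5 (11.9%), against 21.9% and 20.6% of all genes. EZH2i alone lowered 23 (54.8%) and raised 7 (16.7%), against 31.5% and 32.6% of all genes. The 3 comparisons share the DMSO libraries. The median log2 fold change of the carriers was -0.14 with AKTi, -0.31 with EZH2i and -0.57 in the combination, and that of all genes was 0.01, 0.03 and 0.06.

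The combination also lay below each single agent. Against AKTi it was lower in 24 carriers and higher in 7, with 32.1% of all genes lower and 32.1% higher. Against EZH2i it was lower in 21 and higher in 5, with 25.7% and 21.1% of all genes. EZH2i against AKTi was lower in 21 and higher in 5, with 25.1% and 25.4% of all genes. The count of 7 carriers above AKTi became 4 without AKTi library A or without combination library B. These values are relative to the other RNA of a library, so a change in cell state and a change in RNA per cell cannot be told apart.

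The direction of small changes depends on how libraries are scaled. Scaling by library size only moved the median of all genes in the combination against DMSO from 0.06 to 0.26, and upper-quartile scaling moved it to 0.25. The carriers' median moved with it, to -0.38 and -0.39. It lay 0.64 below the median of all genes under each of the 3 scalings. A scaling shifts all genes of a library alike, so this distance could hardly change and is no check of the result. Of the carriers called, 81.2% were lower under TMM, 70.6% by library size only and 71.4% by upper quartile, and of all genes called 48.1%, 38.5% and 39.1%. By library size only, the share lower among all genes called also moved from 49.2% to 38.7% in EZH2i against DMSO, from 50.0% to 39.8% in the combination against AKTi and from 49.7% to 39.2% in EZH2i against AKTi.

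**Figure D1:**
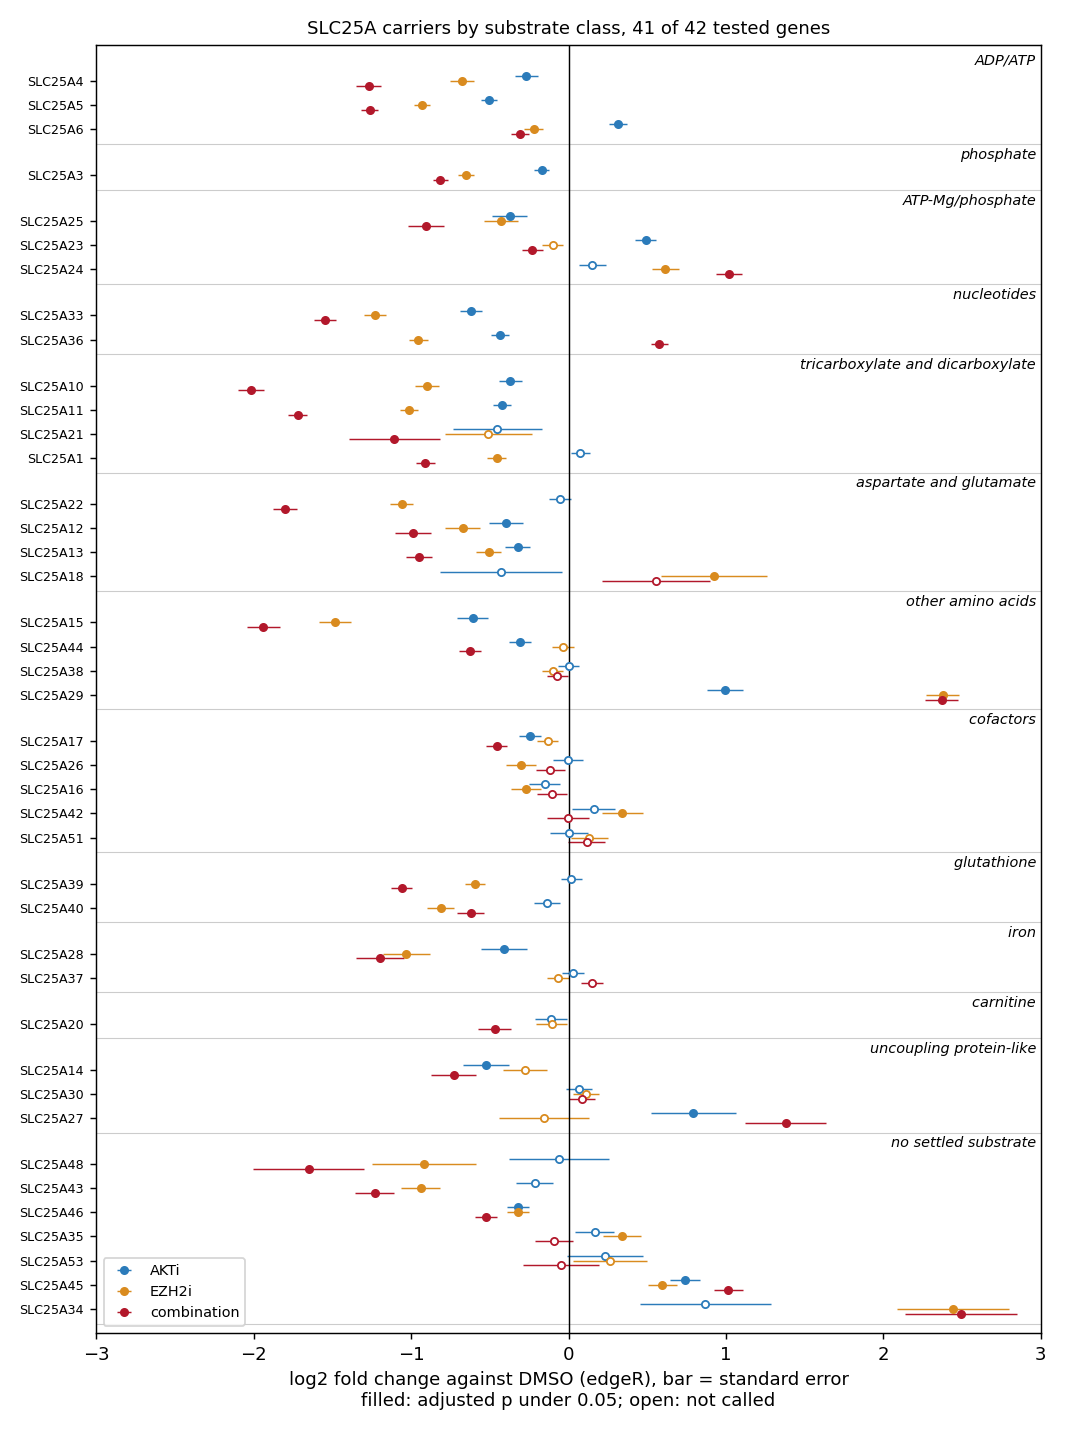
Log2 fold change against DMSO (x axis) of 41 of the 42 tested carriers, grouped by substrate class, in AKTi, EZH2i and the combination. Points are edgeR estimates, bars standard errors, and filled points passed an adjusted p of 0.05. In the combination 25 filled points lie left of 0 and 6 right of it, from SLC25A10 at -2.02 to SLC25A34 at 2.49.

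Summed over all 48 carriers, the length-scaled level was 1554 ± 33.8 (SD, n = 3) in DMSO, 1385 ± 39.1 with AKTi, 1016 ± 29.7 with EZH2i and 863 ± 29.0 in the combination. The ADP/ATP carriers made up most of it, with 935 in DMSO and 510 in the combination. In percent of the DMSO mean, the combination ranged from 37.4% for tricarboxylate and dicarboxylate carriers and 42.6% for aspartate and glutamate carriers to 88.5% for ATP-Mg/phosphate carriers. The uncoupling protein-like carriers were at 95.3%, with libraries that overlapped DMSO. Nucleotide carriers stood lower in EZH2i, at 44.6%, than in the combination, at 58.6%, and iron carriers likewise at 75.8% and 82.3%, with overlapping libraries for iron. By library size only, the summed levels of the ATP-Mg/phosphate and the uncoupling protein-like carriers lay above DMSO instead, by 0.02 and 0.13 on the log2 scale.

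**Figure D2:**
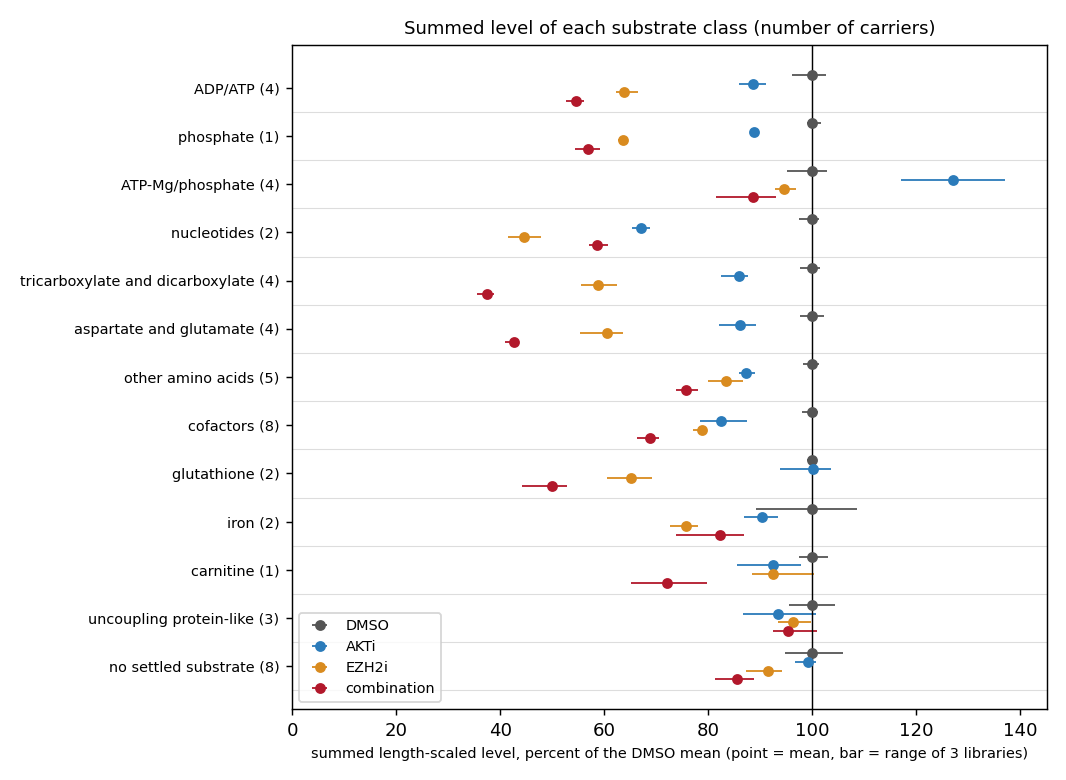
Summed length-scaled level of each substrate class (y axis, number of carriers in brackets) in percent of its DMSO mean (x axis). Points are means and bars the range of 3 libraries per arm. Tricarboxylate and dicarboxylate carriers fall furthest, to 37.4% in the combination, and ATP-Mg/phosphate carriers stand at 127% in AKTi.

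The ADP/ATP carriers export the ATP made in the matrix in exchange for cytosolic ADP, and their forms moved apart. SLC25A5 (ANT2), the form of dividing cells (ENSG00000005022, hg38 chrX:119468400-119471319), was the carrier with the highest length-scaled level in DMSO. It had 950.3, 941 and 848 CPM under DMSO, 650.0, 659 and 621 under AKTi, 478, 486 and 473 under EZH2i and 386, 388 and 366 with both agents. Each arm lay wholly below the one before it. SLC25A5 fell, with log2 fold changes of -0.50 ± 0.05 (SE) with AKTi, -0.93 ± 0.05 with EZH2i and -1.26 ± 0.05 in the combination (adjusted p = 5.1e-22).

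SLC25A6 (ANT3), the ubiquitous form (ENSG00000169100, hg38 chrX:1386152-1392724), ranked second per length in DMSO. It had 673, 660.2 and 687 CPM under DMSO, 776, 865 and 874 under AKTi, 635, 541 and 557 under EZH2i and 546, 561 and 522 with both agents. All AKTi libraries lay above DMSO, whereas EZH2i and the combination lay below DMSO and overlapped each other. AKTi raised SLC25A6 (0.32 ± 0.06 on the log2 scale, adjusted p = 2.4e-05), and it was lower in EZH2i (-0.22 ± 0.06, adjusted p = 0.00099) and in the combination (-0.31 ± 0.06, adjusted p = 1.1e-05). By library size only, the values in EZH2i and the combination were -0.08 and -0.11, neither called, and the EZH2i call was also lost by upper quartile (-0.10). SLC25A6 lies in the pseudoautosomal region and SLC25A5 has many processed pseudogenes, so reads shared with copies may have been dropped or split.

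SLC25A4 (ANT1), the heart and muscle form, had 69.0, 72.2 and 72.1 CPM under DMSO, 54.7, 58.8 and 63.5 under AKTi, 49.8, 42.8 and 41.3 under EZH2i and 29.6, 28.5 and 30.4 with both agents. The arms stood in the same order as for SLC25A5, with no overlap between neighbours. The log2 fold change was -0.27 ± 0.07 with AKTi, -0.68 ± 0.07 with EZH2i and -1.27 ± 0.08 in the combination (adjusted p = 2.4e-17). Per length, SLC25A5 stood 1.95 times above SLC25A6 in DMSO, and the ratio was 1.11 with AKTi, 1.20 with EZH2i and 1.01 in the combination. SLC25A5 thus made up 65.1% ± 1.83 (SD, n = 3) of the class in DMSO and 49.6% ± 0.272 in the combination, where the pair stood level per length. In CPM, without length scaling, SLC25A5 lay above SLC25A6 in DMSO and below it in the other arms.

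Phosphate for ATP synthesis enters the matrix through SLC25A3. It had 791, 774 and 771 CPM under DMSO, 691, 695 and 687 under AKTi, 501, 487 and 497 under EZH2i and 460.5, 445 and 423 with both agents. The 4 arms did not overlap, in the order DMSO, AKTi, EZH2i, combination. SLC25A3 fell, with log2 fold changes of -0.65 ± 0.05 in EZH2i and -0.81 ± 0.05 in the combination (adjusted p = 4.1e-17). Its change in AKTi was smaller, at -0.17 ± 0.05 (adjusted p = 0.0047), and was not called by library size only (-0.11). The deposited length of SLC25A3 is 8896 bases, against 1500 for SLC25A5 and 2164 for SLC25A6, which lowers its length-scaled level beside theirs. In CPM, without length scaling, SLC25A3 lay above SLC25A6 in DMSO. Its place below the ADP/ATP carriers in the summed levels thus depends on the deposited lengths.

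**Figure D3:**
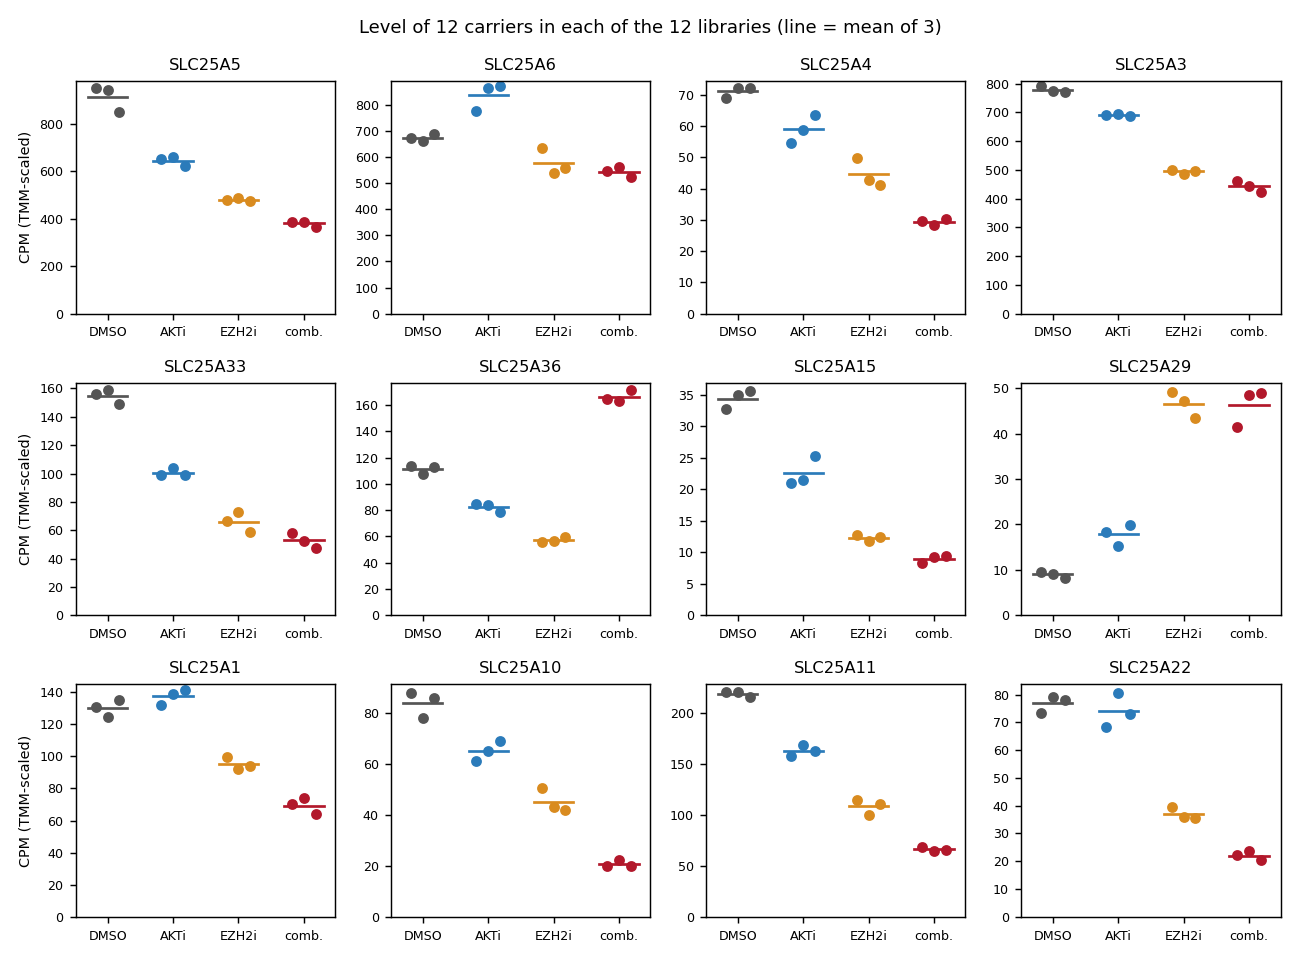
Level in TMM-scaled CPM (y axis, from 0) of 12 carriers in each library of the 4 arms. Points are libraries and lines the mean of 3. SLC25A5, SLC25A33, SLC25A15, SLC25A10 and SLC25A11 step down from DMSO to the combination, SLC25A29 steps up, and SLC25A36 falls with each agent and is highest with both.

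The ATP-Mg/phosphate carriers adjust the adenine nucleotide pool of the matrix, most of them under the control of cytosolic calcium. SLC25A23, the highest of them per length, had 148, 159.5 and 159 CPM under DMSO, 199.9, 220.3 and 234 under AKTi, 143, 153 and 138 under EZH2i and 137, 144 and 116 with both agents. AKTi libraries stood above all others. SLC25A23 rose in AKTi, with a log2 fold change of 0.49 ± 0.07 (adjusted p = 1.4e-07), did not pass the test in EZH2i (-0.10) and was slightly lower in the combination (-0.23 ± 0.07, adjusted p = 0.0025). That last call was lost under both other scalings (-0.03 and -0.05) and without combination library C (-0.15).

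SLC25A24 went the other way. It had 20.7, 22.6 and 23.9 CPM under DMSO, 25.4, 24.5 and 25.0 under AKTi, 32.2, 36.5 and 34.4 under EZH2i and 46.9, 43.2 and 46.3 with both agents. Each arm lay wholly above the one before it, and SLC25A24 rose in EZH2i (0.61 ± 0.08) and the combination (1.02 ± 0.08, adjusted p = 1.5e-13), while AKTi at 0.15 ± 0.09 did not pass the test. SLC25A25 fell in the combination (log2 fold change -0.91 ± 0.11), in AKTi (-0.37) and in EZH2i (-0.43), and the AKTi call was lost without AKTi library A (-0.30). The ratio of SLC25A25 to SLC25A24 per length went from 2.32 in DMSO to 0.602 in the combination. Over 13.7% of its exon bases, SLC25A24 shares exon with a gene on the opposite strand that is listed at 0.

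The pyrimidine nucleotide carriers SLC25A33 and SLC25A36, which supply the matrix with building blocks for mitochondrial DNA and RNA, parted in the combination. SLC25A33 (ENSG00000171612, hg38 chr1:9539482-9585179) had 156, 159 and 149 CPM under DMSO, 99.2, 104 and 98.7 under AKTi, 66.6, 72.6 and 59.0 under EZH2i and 57.8, 52.7 and 47.8 with both agents. Its arms stepped down from DMSO to the combination without overlap, with log2 fold changes of -0.62 ± 0.07, -1.23 ± 0.07 and -1.55 ± 0.07 against DMSO (adjusted p = 4.1e-21 for the combination). SLC25A36 (ENSG00000114120, hg38 chr3:140941830-140980961) had 114, 108 and 112 CPM under DMSO, 85.0, 83.6 and 78.7 under AKTi, 56.0, 56.8 and 59.5 under EZH2i and 164, 163 and 171 with both agents. It was lower than DMSO in every AKTi and EZH2i library and higher than DMSO in every combination library.

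SLC25A36 fell with each agent alone, with log2 fold changes of -0.43 ± 0.06 (adjusted p = 1.2e-07) in AKTi and -0.95 ± 0.06 (adjusted p = 1.4e-16) in EZH2i. With both agents it rose, with log2 fold changes of 0.58 ± 0.06 (adjusted p = 1.5e-11) against DMSO, 1.01 ± 0.06 against AKTi and 1.53 ± 0.06 against EZH2i. The interaction, the log2 change from EZH2i to the combination less that from DMSO to AKTi, was 1.97 ± 0.08 (adjusted p = 3.2e-20), the highest of the 42 carriers. SLC25A33 thus stood 3.71 times above SLC25A36 per length in DMSO, 3.26 in AKTi and 3.07 in EZH2i, but at 0.846 in the combination. SLC25A36 provided 21.2% ± 0.898 (SD, n = 3) of the class in DMSO and 54.2% ± 2.90 in the combination. No exon of either gene overlaps an exon of another gene in GENCODE v44.

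The bases just before the RefSeq start of these genes are shown because the pair serves the same substrates, moved together under single agents and parted under both. Capitals mark a CACGTG E-box, the palindrome bound by MYC and related factors, and a TGACGTCA CRE, the palindrome bound by CREB and ATF factors. The first lies on the plus strand at chr1:9539215-9539464 and the second on the plus strand at chr3:140941586-140941835 (RefSeq, GRCh38.p14).
SLC25A33: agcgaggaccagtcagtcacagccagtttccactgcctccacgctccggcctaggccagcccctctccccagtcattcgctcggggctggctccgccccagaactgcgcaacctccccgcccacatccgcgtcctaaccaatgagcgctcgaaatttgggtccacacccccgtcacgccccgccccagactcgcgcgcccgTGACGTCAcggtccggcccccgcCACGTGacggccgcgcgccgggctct
SLC25A36: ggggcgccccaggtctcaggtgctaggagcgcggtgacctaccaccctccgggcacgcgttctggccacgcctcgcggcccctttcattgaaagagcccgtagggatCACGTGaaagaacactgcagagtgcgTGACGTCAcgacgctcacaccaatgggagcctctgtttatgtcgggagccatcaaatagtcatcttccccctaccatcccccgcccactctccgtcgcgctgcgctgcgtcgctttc
In SLC25A33 the CRE begins at -49 and the E-box at -26 from the start, and in SLC25A36 the E-box begins at -143 and the CRE at -117. Promoters were found for 40 of the 48 carriers and were missing for SLC25A2, SLC25A16, SLC25A30, SLC25A32, SLC25A35, SLC25A37 and SLC25A41, among others. CACGTG stood in 7 of the 40 (17.5%) and in 7.43% of 27305 promoters of the same length, and TGACGTCA in 3 (7.5%) and in 1.98%. The core ACGTG of the hypoxia response element, searched on both strands and contained in every CACGTG, stood in 11 (27.5%) and in 21.6%. The NRF1 palindrome was in none of the 40 and in 1.36% of all. The E-box group was SLC25A13, SLC25A31, SLC25A33, SLC25A36, SLC25A38, SLC25A46 and SLC25A51. Apart from SLC25A31, which had no count and was not tested, it held carriers that fell, rose and were not called in the combination.

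The tricarboxylate and dicarboxylate carriers, which pass TCA cycle intermediates across the membrane, were all lower in the combination. SLC25A11 exchanges 2-oxoglutarate for malate in the malate-aspartate shuttle. It had 220.1, 220.0 and 215 CPM under DMSO, 157, 169 and 162 under AKTi, 115, 99.9 and 110.4 under EZH2i and 68.4, 64.6 and 65.6 with both agents. The arms stepped down without overlap, with log2 fold changes of -0.42 ± 0.06 with AKTi, -1.01 ± 0.06 with EZH2i and -1.72 ± 0.06 in the combination (adjusted p = 9.4e-25).

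SLC25A10, which exchanges malate or succinate for phosphate, had 87.8, 77.9 and 85.7 CPM under DMSO, 61.0, 65.0 and 68.8 under AKTi, 50.4, 43.0 and 41.9 under EZH2i and 19.9, 22.4 and 19.8 with both agents. It fell the most of the class, with log2 fold changes of -0.37 ± 0.07, -0.90 ± 0.08 and -2.02 ± 0.08 in AKTi, EZH2i and the combination (adjusted p = 1.1e-22). Its interaction was -0.75 ± 0.11 (adjusted p = 1.9e-06), so the fall with both agents exceeded the sum of the separate falls. Over 46.6% of its exon bases, SLC25A10 shares exon on the same strand with a gene listed at 0, so some of its reads may not have been counted.

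SLC25A1, the citrate carrier that feeds cytosolic acetyl-CoA for lipid synthesis, had 131, 125 and 135 CPM under DMSO, 132, 139 and 141 under AKTi, 99.5, 92.1 and 93.9 under EZH2i and 70.1, 74.1 and 63.9 with both agents. AKTi overlapped DMSO, EZH2i lay below both and the combination lay lowest. SLC25A1 did not pass the test in AKTi (0.08 ± 0.06, adjusted p = 0.33) but fell in EZH2i (-0.45 ± 0.06) and the combination (-0.91 ± 0.06, adjusted p = 7.7e-16), with an interaction of -0.53 ± 0.09 (adjusted p = 9.1e-06). Per length, SLC25A1 stood 1.95 times above SLC25A10 in DMSO and 4.19 times in the combination. SLC25A21, the 2-oxoadipate carrier, had 3.10, 3.61 and 3.45 CPM under DMSO, 2.82, 2.94 and 1.67 under AKTi, 3.15, 2.05 and 2.02 under EZH2i and 1.37, 2.08 and 1.27 with both agents, and fell in the combination, with a log2 fold change of -1.11 ± 0.29 (adjusted p = 0.00088). Over 30.3% of its exon bases it overlaps PAX9 on the opposite strand, which had 147 to 306 counts, and the part of PAX9 reads in its level was not tested.

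The aspartate-glutamate exchangers of the malate-aspartate shuttle fell together. SLC25A13 (citrin) had 60.5, 59.2 and 64.5 CPM under DMSO, 46.1, 47.4 and 53.9 under AKTi, 37.2, 45.6 and 46.5 under EZH2i and 33.5, 30.8 and 31.0 with both agents. Per length it made up 41.4% ± 1.41 (SD, n = 3) of the aspartate and glutamate class in DMSO, level with SLC25A22 at 41.4% ± 1.08. In AKTi SLC25A22 stood above it, at 46.4% against 38.5%, whereas SLC25A13 led in EZH2i (48.0% against 33.2%) and in the combination (50.4% against 27.9%). SLC25A12 (aralar) ranged from 33.7 to 34.9 CPM in DMSO and from 16.2 to 19.0 in the combination. Both fell in every treated arm, with log2 fold changes of -0.95 ± 0.08 for SLC25A13 and -0.99 ± 0.11 for SLC25A12 in the combination. Their ratio per length was 0.400 in DMSO and 0.389 in the combination, with libraries that overlapped.

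Of the glutamate carriers, SLC25A22 had 73.4, 79.3 and 77.9 CPM under DMSO, 68.4, 80.7 and 73.1 under AKTi, 39.6, 35.8 and 35.5 under EZH2i and 22.1, 23.5 and 20.5 with both agents. AKTi overlapped DMSO, while EZH2i and the combination lay well below. SLC25A22 was not called in AKTi (-0.05 ± 0.07, adjusted p = 0.59), fell in EZH2i (-1.06 ± 0.07) and in the combination (-1.80 ± 0.08, adjusted p = 1.1e-21), and had an interaction of -0.69 ± 0.11 (adjusted p = 4.6e-06). SLC25A18, its low-level counterpart, had at most 2.39 CPM. It rose in EZH2i, with a log2 fold change of 0.93 ± 0.34 (adjusted p = 0.016), a call lost without DMSO library C (0.66) or EZH2i library C (0.81), and at 0.56 was not called in the combination.

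Among carriers of other amino acids, SLC25A15 and SLC25A29 moved in opposite directions. SLC25A15 exchanges ornithine for citrulline in the urea cycle. It had 32.7, 34.9 and 35.5 CPM under DMSO, 20.9, 21.5 and 25.2 under AKTi, 12.7, 11.8 and 12.4 under EZH2i and 8.26, 9.28 and 9.42 with both agents. The arms stepped down without overlap, and SLC25A15 fell, with log2 fold changes of -0.61 ± 0.10, -1.48 ± 0.10 and -1.94 ± 0.11 in AKTi, EZH2i and the combination (adjusted p = 1.4e-18).

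SLC25A29 carries basic amino acids such as arginine, lysine and ornithine. It had 9.63, 9.07 and 8.25 CPM under DMSO, 18.2, 15.3 and 19.9 under AKTi, 49.2, 47.0 and 43.4 under EZH2i and 41.5, 48.5 and 48.9 with both agents. AKTi libraries lay above DMSO, and EZH2i and combination libraries lay above AKTi and overlapped each other. SLC25A29 rose, with log2 fold changes of 0.99 ± 0.11 (adjusted p = 5.4e-09) with AKTi, 2.38 ± 0.10 (adjusted p = 7.1e-21) with EZH2i and 2.37 ± 0.10 (adjusted p = 2.1e-21) in the combination. The combination did not differ detectably from EZH2i (-0.01 ± 0.09, adjusted p = 0.96), and the interaction was -1.00 ± 0.14 (adjusted p = 1.2e-06). Per length, SLC25A15 stood 15.5 times above SLC25A29 in DMSO, 5.15 with AKTi, 1.07 with EZH2i and 0.789 in the combination, the widest shift of the 14 pairs compared.

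SLC25A38, which brings glycine in for heme synthesis and was the highest of this class per length over all arms, was not called in any arm. It had 69.5, 68.5 and 68.3 CPM under DMSO, 70.4, 70.3 and 65.9 under AKTi, 65.6, 59.8 and 66.8 under EZH2i and 68.6, 66.4 and 61.3 with both agents. None of its 3 log2 fold changes against DMSO passed the test, and they ran from -0.10 to 0.00. SLC25A44, a branched-chain amino acid carrier, fell in AKTi (-0.31 ± 0.07) and the combination (-0.63 ± 0.07) but was not called in EZH2i (-0.03).

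Of the 6 cofactor carriers tested, 2 were lower in the combination and 4 were not called. SLC25A17, the peroxisomal carrier of coenzyme A, FAD and NAD, had 66.6, 67.0 and 68.9 CPM under DMSO, 56.6, 61.2 and 53.2 under AKTi, 60.3, 64.2 and 60.3 under EZH2i and 50.5, 47.8 and 49.2 with both agents. It fell in AKTi (-0.24 ± 0.07) and the combination (-0.46 ± 0.07, adjusted p = 1.5e-07), and the combination lay below every other library. SLC25A51, the NAD carrier, was not called against DMSO in any arm, with log2 fold changes of 0.00, 0.13 and 0.12. SLC25A16 and SLC25A26, linked to coenzyme A and S-adenosylmethionine, were lower in EZH2i (-0.27 and -0.30) and not called in the combination (-0.11 and -0.12). With libraries scaled by size alone (-0.13 and -0.16) or upper quartile (-0.15 and -0.18), neither EZH2i call held. Over 12.2% of its exon bases SLC25A26 overlaps LRIG1 on the opposite strand, which had 553 to 1873 counts. The part of LRIG1 reads in the level of SLC25A26 was not tested.

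Both glutathione carriers were lower in EZH2i and in the combination, and neither was called in AKTi. SLC25A39, the higher per length, had 208, 211 and 211 CPM under DMSO, 197, 220.4 and 220.4 under AKTi, 141, 128 and 148 under EZH2i and 105, 108 and 88.6 with both agents. The combination lay below EZH2i, and EZH2i below the other arms. SLC25A39 had log2 fold changes of -0.59 ± 0.06 in EZH2i and -1.06 ± 0.07 in the combination (adjusted p = 6.3e-17), and an interaction of -0.48 ± 0.09 (adjusted p = 0.0001). SLC25A40 fell, with log2 fold changes of -0.81 ± 0.09 and -0.62 ± 0.08. Its combination libraries, at 22.9 to 27.3 CPM, lay above its EZH2i libraries, at 20.8 to 22.5, although the difference was not called (0.19 ± 0.09, adjusted p = 0.074).

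The iron carriers of the inner membrane, the mitoferrins, differed. SLC25A37 (mitoferrin-1), the higher per length, had 82.9, 84.9 and 72.9 CPM under DMSO, 85.3, 79.0 and 80.3 under AKTi, 74.9, 80.7 and 73.7 under EZH2i and 80.3, 91.5 and 94.4 with both agents. It overlapped DMSO in each arm and was not called against DMSO (combination 0.15 ± 0.07, adjusted p = 0.051). Its difference of 0.21 between the combination and EZH2i was called, but not without combination library C (0.17) or EZH2i library A (0.17). SLC25A28 (mitoferrin-2) had 12.7, 14.1 and 10.9 CPM under DMSO, 8.68, 10.9 and 8.62 under AKTi, 6.70, 5.90 and 5.79 under EZH2i and 4.71, 6.05 and 5.56 with both agents. It fell, with log2 fold changes of -1.03 ± 0.15 in EZH2i and -1.20 ± 0.15 in the combination (adjusted p = 9e-09).

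The smaller fall of SLC25A28 in AKTi was -0.41 ± 0.15 (adjusted p = 0.023). Its estimate stayed between -0.55 and -0.35 under all other settings, but the call did not always hold. The call was lost without DMSO library A (-0.40) or B (-0.35) and without AKTi library A (-0.36) or C (-0.37). Under both other scalings (-0.35) it was lost too. Per length, SLC25A28 stood at 0.723 of SLC25A37 in DMSO and at 0.284 in the combination.

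SLC25A20, which passes acylcarnitines to fatty acid oxidation, had 22.3, 23.0 and 21.8 CPM under DMSO, 19.1, 21.9 and 21.0 under AKTi, 19.8, 19.8 and 22.4 under EZH2i and 16.0, 17.8 and 14.6 with both agents. Only the combination lay wholly below DMSO, with a log2 fold change of -0.47 ± 0.10 (adjusted p = 0.00011). It was not called in AKTi (-0.11) or EZH2i (-0.11).

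Of the uncoupling protein-like carriers, 1 fell, 1 rose and 1 was not called in the combination. SLC25A30 (KMCP1), the highest per length, had 39.6, 33.9 and 38.5 CPM under DMSO, 37.1, 38.0 and 42.4 under AKTi, 39.4, 38.0 and 43.6 under EZH2i and 40.9, 36.4 and 41.9 with both agents. Its arms overlapped and none was called, with log2 fold changes of 0.07 to 0.11. SLC25A27 (UCP4), a carrier known mainly from brain, had 1.68, 2.36 and 1.82 CPM under DMSO, 3.40, 2.73 and 3.96 under AKTi, 2.01, 2.28 and 1.06 under EZH2i and 4.97, 5.02 and 5.20 with both agents. It rose in the combination, with log2 fold changes of 1.38 ± 0.26 (adjusted p = 1.1e-05) against DMSO and 1.53 ± 0.26 against EZH2i, whereas EZH2i alone, at -0.15, was not called. The rise in AKTi (0.79 ± 0.27, adjusted p = 0.017) was lost without DMSO library A (0.70) or C (0.74) or AKTi library C (0.63). SLC25A14 (UCP5) fell, with a log2 fold change of -0.73 ± 0.14 in the combination.

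Among carriers with no settled substrate, SLC25A46, an outer membrane protein of mitochondrial dynamics, was the highest per length. It had 64.2, 69.8 and 59.1 CPM under DMSO, 52.7, 50.3 and 51.1 under AKTi, 51.1, 50.9 and 52.0 under EZH2i and 43.8, 44.5 and 45.4 with both agents. It fell in each arm, with log2 fold changes of -0.32 ± 0.07 with AKTi, -0.32 ± 0.07 with EZH2i and -0.53 ± 0.07 in the combination. SLC25A43 had 18.6, 22.2 and 18.7 CPM under DMSO, 16.1, 17.1 and 17.9 under AKTi, 10.5, 11.8 and 8.77 under EZH2i and 8.41, 8.30 and 8.58 with both agents. It fell in EZH2i (-0.94 ± 0.12) and the combination (-1.23 ± 0.12, adjusted p = 3.5e-11). SLC25A48, which has been linked to choline, had 3.23, 1.70 and 2.16 CPM under DMSO, 2.46, 2.45 and 1.88 under AKTi, 1.00, 1.17 and 1.52 under EZH2i and 0.710, 0.634 and 0.906 with both agents. Its fall in the combination was -1.65 ± 0.35 (adjusted p = 8.5e-05), and its call in EZH2i (-0.92 ± 0.33) was lost without DMSO library A (-0.64).

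SLC25A45 and SLC25A34 rose. SLC25A45 had 21.3, 19.2 and 19.7 CPM under DMSO, 33.1, 34.0 and 33.2 under AKTi, 32.7, 30.9 and 27.6 under EZH2i and 41.4, 44.4 and 35.6 with both agents. Every treated library lay above DMSO, and it rose, with log2 fold changes of 0.74 ± 0.09 with AKTi, 0.60 ± 0.09 with EZH2i and 1.02 ± 0.09 in the combination (adjusted p = 1.8e-12). SLC25A34 had 0.337, 0.590 and 0.719 CPM under DMSO, 0.796, 0.981 and 1.32 under AKTi, 3.01, 3.33 and 2.94 under EZH2i and 2.53, 4.50 and 2.60 with both agents. All EZH2i and combination libraries lay above AKTi and DMSO, with log2 fold changes of 2.44 ± 0.35 and 2.49 ± 0.35 (adjusted p = 8.4e-08), at low counts. SLC25A35 was not called in the combination (-0.09 ± 0.12), and SLC25A53 in no arm. SLC25A35 was higher in EZH2i (0.34), a call lost without DMSO library B (0.28) or EZH2i library C (0.29). RANGRF, on the opposite strand, covers 28.7% of the exon bases of SLC25A35.

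The AKTi effect depended on EZH2i in 15 carriers by the interaction. The combination was lower than additive in 12 (28.6%) and higher in 3 (7.14%), against 17.5% and 10.7% of all genes, with medians of -0.10 for carriers and -0.05 for all genes. SLC25A10, SLC25A22, SLC25A1 and SLC25A39 fell further with both agents than the separate effects added up to. SLC25A6 and SLC25A23, which rose with AKTi alone, lay below additivity, at -0.40 ± 0.08 (adjusted p = 0.00021) and -0.62 ± 0.09 (adjusted p = 2.9e-06). SLC25A29 lay below it too, with a rise over DMSO of 2.37 with both agents and 2.38 with EZH2i. SLC25A35 was also below it, at -0.60 ± 0.17 (adjusted p = 0.007). SLC25A5, SLC25A3 and SLC25A15 were not called, with values of 0.17 ± 0.07, 0.01 ± 0.07 and 0.15 ± 0.15. The count of 3 above additivity became 1 without AKTi library A or without combination library A.

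**Figure D4:**
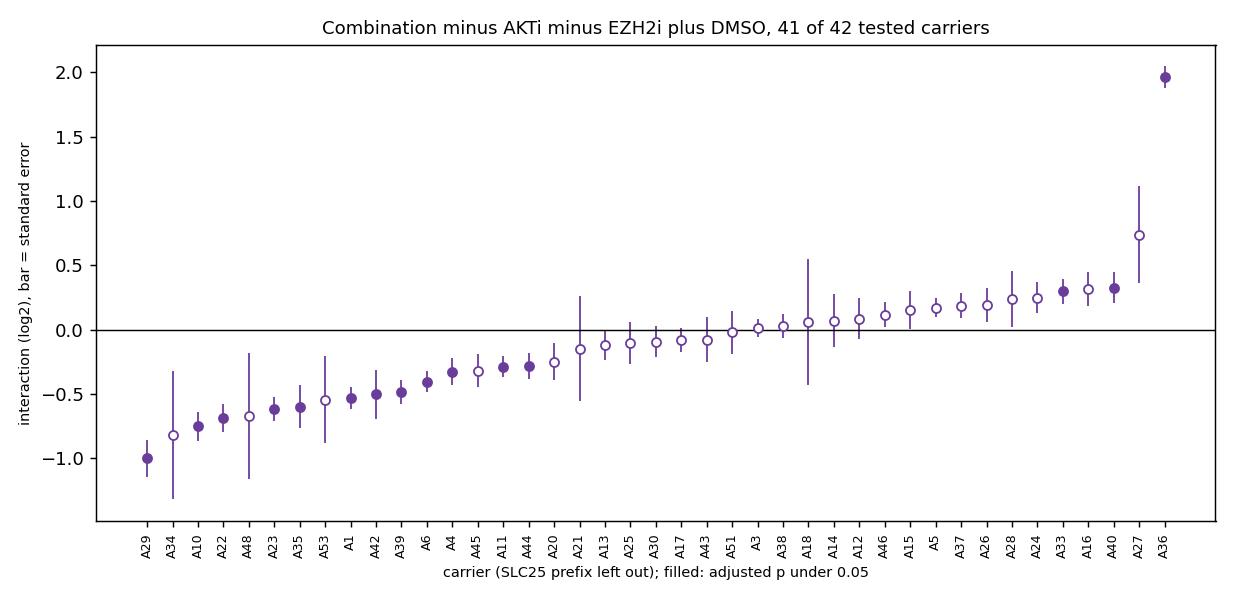
Interaction on the log2 scale (y axis) of 41 of the 42 tested carriers (x axis, in order of value). Bars are standard errors and filled points passed an adjusted p of 0.05 by edgeR. SLC25A36 stands apart at 1.97, and SLC25A29 is lowest at -1.00.

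Carriers that share a substrate or a pathway were set against each other as 14 pairs with both genes tested. The ratio per length in the combination did not overlap DMSO in 12 of the 14, in EZH2i in 11 and in AKTi in 10. Over all pairs of the 16093 tested genes with a count in every library, the ratio did not overlap DMSO in 71.6% for the combination, 62.7% for EZH2i and 45.9% for AKTi. Ratios without overlap were thus common throughout the transcriptome, and nothing particular to the carriers is read from the counts of pairs. An exact two-sided permutation test of 3 libraries against 3 cannot go below p = 0.1, which is the value of each pair without overlap. Adjusted over the 14 pairs in the combination it was 0.12, so no pair can pass 0.05 by this test. The pairs that overlapped DMSO in the combination were SLC25A5 with SLC25A4 and SLC25A12 with SLC25A13. Per length, ratios crossed 1 between DMSO and the combination for SLC25A15 to SLC25A29, SLC25A33 to SLC25A36 and SLC25A25 to SLC25A24.

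**Figure D5:**
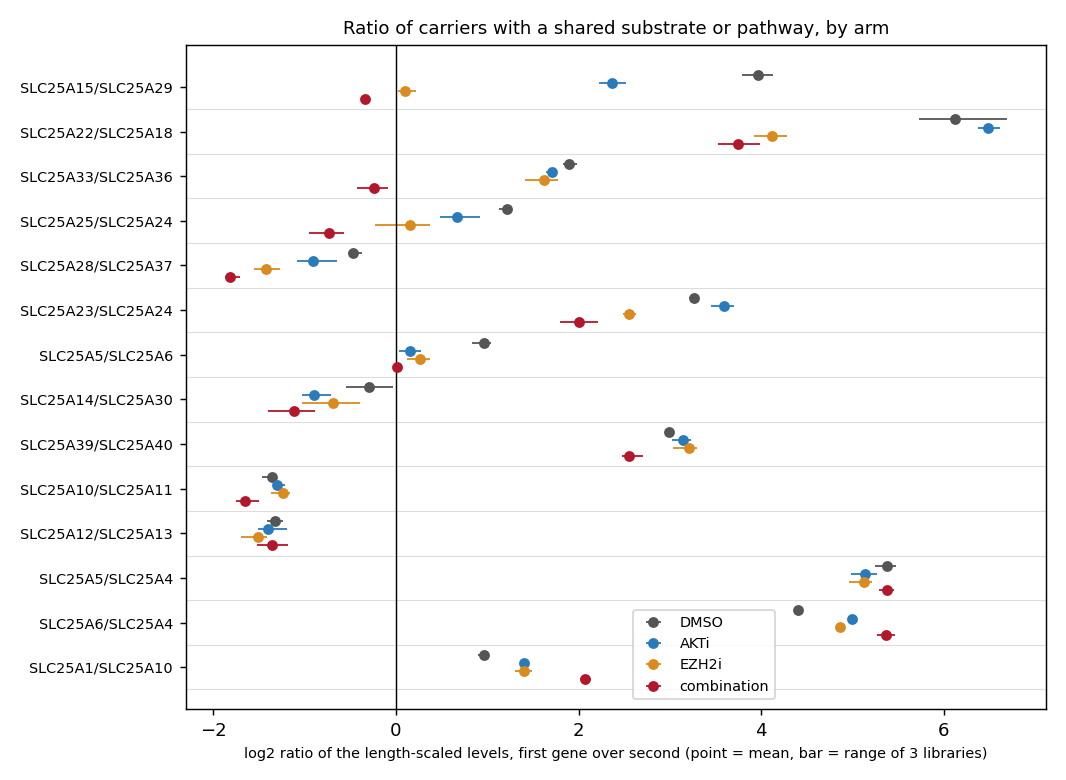
Log2 ratio of the length-scaled levels (x axis) in 14 carrier pairs (y axis) for the 4 arms. Points are means and bars the range of 3 libraries. The ratio of SLC25A15 to SLC25A29 moves from 3.96 in DMSO to -0.34 in the combination, and that of SLC25A33 to SLC25A36 from 1.89 to -0.24.

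Mitochondrial transport genes outside the symbol rule were counted from a list of 25, of which 22 were tested. In the combination against DMSO 15 were lower and 3 higher, with a median log2 fold change of -0.68. AKTi lowered 11 and raised 3, as did EZH2i. The pyruvate carrier genes MPC1 and MPC2, which open the way to the TCA cycle, had log2 fold changes of -0.86 ± 0.13 (SE) and -1.51 ± 0.05 in the combination. The outer membrane channels VDAC1, VDAC2 and VDAC3 were at -1.40, -1.38 and -1.28. The serine carrier SFXN1 was at -1.64, and the SLC25 relative MTCH2 at -1.41. The calcium uniporter MCU was not called (0.01).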

How the data were processed

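PolyA RNA-seq of 12 C4.2B libraries was analysed. The authors aligned reads to hg38 with STAR and counted them on genes with HTSeq, giving deposited counts, in whole numbers, for 58735 genes. They also deposited a signal table from DESeq2 normalization. For 56994 names that occur once, each of its values is the count over a size factor of its library. Versions, annotation and strand setting are not given in the sources used here. Gene length came from a column that belongs to no sample. No column of per-sample values was left unused.

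Counts were analysed in R 4.3.3 with edgeR 4.0.16 (filterByExpr with a minimum count of 10 and a minimum total of 15, TMM, quasi-likelihood test, 1 mean per arm, 12 libraries). P-values were adjusted over 16646 genes at a threshold of 0.05. Levels, pairs and figures were made in Python 3.11.15 with pandas 2.3.3, numpy 2.4.6, scipy 1.17.1 and matplotlib 3.10.9. At 14133755 to 22276417 counts per library, only genes of a few CPM are limited by counting error.

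The carriers, their substrate classes (textbook knowledge), the pairs and the list of related genes were chosen with earlier results of these data known. Values for every library are given for the ADP/ATP and phosphate carriers, for the highest carrier of each class per length (mean of all libraries), and for carriers called with an absolute log2 fold change of at least 1 against DMSO or in the interaction. Of these, 1 carrier is counted but not reported here by name, as is 1 related gene. Other settings tried were the test of DESeq2 1.42.0, library size or upper quartile in place of TMM, looser and stricter filters on low counts, a fit of the compared libraries alone, letters as a replicate block, and 1 library dropped at a time. Simulated data tested the steps. Of 197 genes given a 2-fold change in the simulated combination, edgeR called 77.2% and made 8 false calls over 16165 genes. For simulated interactions the figures were 66.0% and 5. Few genes were changed in the simulation, up or down at random, whereas 35.2% of all genes fell and 38.0% rose in the real combination. The simulated error counts therefore check the steps only and do not carry over to these data. Promoters came from RefSeq (GRCh38.p14) and exon overlaps from GENCODE v44.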

Additional observations from a re-analysis of the deposited data

Results flagged for a closer look

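In 15 carriers the AKTi effect with EZH2i differed from the AKTi effect without it by edgeR's interaction test at an adjusted p of 0.05. Of the 42 tested, 12 (28.6%) lay below additivity and 3 (7.14%) above it. Among all genes tested the shares were 17.5% and 10.7%, so such calls were common throughout the transcriptome. No sample could be judged an outlier, because each arm holds 3 libraries. SLC25A36, a pyrimidine nucleotide carrier, differed by 1.97 on the log2 scale, with a fall in AKTi alone and a rise of the combination over EZH2i in 3 of 3 libraries. SLC25A29, the basic amino acid carrier, differed by -1.00, with a rise in AKTi alone and none detected on top of EZH2i. Below additivity were also the dicarboxylate carrier SLC25A10 at -0.75, the glutamate carrier SLC25A22 at -0.69, the ATP-Mg/phosphate carrier SLC25A23 at -0.62, SLC25A35 at -0.60, the citrate carrier SLC25A1 at -0.53, the glutathione carrier SLC25A39 at -0.48 and the ADP/ATP carrier SLC25A6 at -0.40.

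The other 6 differences were each lost when 1 library was left out. SLC25A4, at -0.32, was lost without DMSO library B (-0.30), AKTi library B (-0.30) or AKTi library C (-0.24). SLC25A11, at -0.29, was lost without AKTi library B (-0.23) or EZH2i library C (-0.24). SLC25A33, at 0.30, was lost without AKTi library A (0.26), EZH2i library C (0.25) or combination library A (0.22). SLC25A40, at 0.33, was lost without DMSO library A (0.34) or C (0.29), AKTi library A (0.30) or B (0.34), EZH2i library A (0.27) or combination library A (0.24). SLC25A44, at -0.28, was lost without DMSO library A (-0.25) or B (-0.26), AKTi library B (-0.29) or C (-0.23), EZH2i library A (-0.27) or C (-0.29), or combination library A (-0.25) or C (-0.28). SLC25A42, a coenzyme A carrier at -0.50, was lost without DMSO library A (-0.49), B (-0.48) or C (-0.51), AKTi library A (-0.50) or C (-0.43), EZH2i library A (-0.42) or combination library A (-0.50) or C (-0.48).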

How the results depend on the processing

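DESeq2, the filters, the libraries compared alone and the replicate block left every count of carriers called within 1.5 times its reported value, except that requiring 10 counts in every library gave 5 carriers above additivity in place of 3. Scaling by library size only and by upper quartile each gave 10 carriers higher in the combination against DMSO in place of 6. Of 182 calls of a carrier in a comparison, 147 held under every alternative, 35 were lost under at least 1 and none changed sign. Library size only cost 17 calls, upper quartile 12 and leaving out a library 27.

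The carriers' median moved by more than its spread between replicates (SD 0.0247) as follows. By library size only and by upper quartile it was -0.085 and -0.086 in AKTi, -0.17 and -0.19 in EZH2i, -0.38 and -0.39 in the combination against DMSO, -0.28 and -0.30 against AKTi, -0.27 and -0.25 against EZH2i, and -0.14 and -0.17 in EZH2i against AKTi. With genes kept from 1 count in total it was -0.38 in the combination against AKTi, -0.34 against EZH2i, -0.18 in EZH2i against AKTi and -0.12 for the interaction. With 10 counts in every library it was -0.29 in EZH2i against DMSO, -0.29 in the combination against EZH2i and -0.060 for the interaction. With 1 library left out it ran from -0.18 to -0.13 in AKTi, -0.39 to -0.30 in EZH2i, -0.66 to -0.52 in the combination against DMSO, -0.55 to -0.42 against AKTi, -0.31 to -0.25 against EZH2i, -0.36 to -0.25 in EZH2i against AKTi and -0.15 to -0.018 for the interaction.

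Carriers higher than AKTi in the combination ran from 4 to 7, and carriers above additivity from 1 to 4, with 1 library left out. The summed levels of the ATP-Mg/phosphate and uncoupling protein-like carriers changed sign by library size only, to 0.019 and 0.13 (log2, combination minus DMSO). With the letters A to C as a replicate block, 26 carriers were lower and 6 higher in the combination, and no count of carriers called changed. Same-letter libraries correlated at -0.06 to 0.07, so no pairing by letter was detected. This cannot exclude a shared origin, because the labels do not say what the letters mark. The interaction needs all 4 arms, so it could not be fitted on the compared libraries alone. The cause of the moves was not tested. Carriers under about 5 CPM, among them SLC25A18, SLC25A21, SLC25A27, SLC25A34 and SLC25A48, had standard errors of 0.23 to 0.50 and could hide smaller changes.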
